A study of Rattus norvegicus with 144 samples.

Results

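The adrenal glands of rats given AMG B at 3 mg/kg by mouth were compared with those of control rats after 1, 4 and 14 days of daily dosing. The treated glands are the 12 arrays titled with this compound, tissue and dose, 4 animals on each day, out of 48 adrenal arrays and 144 arrays in the whole series. They were set against 12 control glands of the same study, 4 on each day, given 0 mg/kg. The day 14 control titles name no compound and were taken by their animal numbers, 25 to 28. All animals were male Sprague Dawley rats aged 8 to 10 weeks. The labels give AMG B and AMG A as code names alone. The design text of the series calls their pharmacology antiangiogenic. Glands of the same study at 60 mg/kg of AMG B (12 arrays), glands at 3 mg/kg of AMG A on day 14 (4 arrays, with 4 controls of their own study), and the liver (12 arrays) and day 14 pancreas (4 arrays) of AMG B animals at 3 mg/kg served for comparison. Glands at 30 mg/kg of AMG A on day 14 (4 arrays) entered the fit of the 48 adrenal arrays but none of the comparisons. Each array stood for 1 animal, and each animal gave 1 adrenal array. By their animal numbers, the AMG B livers and pancreases at 3 mg/kg came from the same animals as the adrenal glands.

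The adrenal gland is one of the most densely vascularised organs. Its cortex makes steroid hormones from cholesterol, its medulla releases catecholamines, and blood drains from the cortex to the medulla through wide, fenestrated sinusoids. The endothelium of such capillaries depends on vascular endothelial growth factor (VEGF): steroid-producing cells secrete VEGF-A, which acts on the receptors encoded by Kdr and Flt1 on endothelial cells. A second endothelial receptor system, the angiopoietin receptor Tek (Tie2) with its relative Tie1, supports vessel stability.

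Transcripts were read as the deposited score, in which 0 is a probe set's mean over the arrays of all tissues and 1 is near its standard deviation over them. A difference in score is therefore not a fold change, and its size cannot be compared between genes as an amount of RNA. The 10 steroid synthesis enzymes averaged 0.799 to 1.57 on the 48 adrenal arrays, against -0.588 to -0.0139 in liver and -0.802 to -0.679 in pancreas. Hepatocyte markers averaged -1.0 to -0.942 and pancreatic acinar markers -0.45 to -0.443 in adrenal, far below their own tissues (0.531 to 0.986 in liver and 1.52 to 3.05 in pancreas), so the adrenal label matched its markers. The highest correlation between 2 adrenal arrays was 0.769, which left no pair of near-identical arrays. The array of animal 35, at 60 mg/kg on day 14, stood apart, with a mean correlation of 0.527 to its group against 0.626 to 0.741 on the other AMG B study arrays. It enters no difference between 3 mg/kg and control, but it adds to the spread that all 48 arrays share in the fit. The main counts are therefore given with and without it. For comparisons other than 60 against 3 mg/kg, the fit without it was not planned and was added after the data were seen. Nothing in the labels says more of how far the animals of a group were separated, so the p-values measure the spread between these animals.

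At 3 mg/kg, over the 3 days together, 15 genes fell and 3 rose, and 4 of the falls were on the list of endothelial genes. These were Tek, Tie1, Emcn and Fam167b, and the other falls included Tmem204, Exoc3l2, Pcdh17, Aqp1, Gpr182 and Ets1. Cdh20, Tbl1x and Wdr20 were higher. These calls came from limma's moderated test of the mean of the 3 within-day differences, with Benjamini-Hochberg adjustment over 14217 genes and a threshold of 0.05. The falls made up 0.106% of the genes tested and the rises 0.0211%, while 854 genes had an unadjusted p under 0.05. Without the array of animal 35 the count was 50 (6 higher, 44 lower), with each of the 18 among them. Which genes were called depended on the arrays fitted. With only the compared groups 24 genes were called, 10 of them among the 18, and with an additive day block on the 24 arrays 16 were called, all lower, 8 of them among the 18. Those 8 were Fam167b, Tek, Emcn, Tmem204, Exoc3l2, Nxpe1, Ly6c and Car8, so Tie1 passed in neither fit.

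Fam167b, a gene on the endothelial list, had the smallest p-value. Its scores were 0.27, 0.97, 1.07 and 1.14 in the day 1 controls and -0.55, -0.08, -0.01 and 0.01 at 3 mg/kg. On day 4 the controls had 0.75, 0.85, 0.92 and 0.94 and the treated animals -0.77, -0.69, -0.45 and -0.44. On day 14 they were 0.93, 1.49, 1.65 and 1.98 against -0.02, 0.27, 0.53 and 0.78. Every treated animal was below every control of its day, on each of the 3 days. The pooled difference was -1.20 ± 0.120 (SE; adjusted p = 6.3e-08, limma).

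Tek, the angiopoietin receptor, came next among the endothelial list. The controls had 1.71, 2.22, 2.40 and 2.55 on day 1, 0.46, 1.46, 1.81 and 1.84 on day 4 and 0.86, 1.10, 1.34 and 1.51 on day 14. The treated animals had 0.80, 0.82, 1.03 and 1.28 on day 1, 0.38, 0.40, 0.95 and 1.06 on day 4 and -0.21, -0.02, 0.29 and 0.29 on day 14. The groups did not overlap on days 1 and 14, and 1 low control overlapped the treated animals on day 4. Tek fell by 1.02 ± 0.139 in score (adjusted p = 4.3e-05, limma).

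Tie1, the partner receptor of Tek, had the largest fall in score of the 15. Its controls ran from 1.12 to 3.06 with a median of 1.73 over the 3 days, and the treated animals from -0.61 to 1.67 with a median of 0.70. All 12 treated animals were below their day's control mean, yet the groups were apart on 1 day only, day 14 (controls 1.16, 1.18, 1.67 and 2.52 against -0.15, 0.40, 0.81 and 1.11). The difference was -1.31 ± 0.268 (adjusted p = 0.022, limma), and the call was lost in 6 of the 24 fits that left out 1 animal.

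Emcn, which encodes endomucin, a sialomucin of venous and capillary endothelium, was lower in all treated animals than in all controls on each day. The day 1 controls had 1.49, 1.92, 2.07 and 2.15 and the treated animals 0.92, 1.25, 1.34 and 1.43. On day 4 the values were 1.74, 1.77, 2.14 and 2.55 against 0.93, 1.13, 1.21 and 1.28, and on day 14 they were 1.55, 1.63, 1.79 and 2.21 against 1.01, 1.15, 1.31 and 1.43. Emcn differed by -0.72 ± 0.121 (adjusted p = 0.0021, limma). Only 5 of 14217 genes (0.0352%) had every treated animal below every same-day control on all 3 days, and 0 genes had every treated animal above. The others beside Emcn and Fam167b were Ehd3 (-1.03, adjusted p = 0.054), Esam (-0.46, adjusted p = 0.42), an endothelial adhesion molecule, and Dpp4 (-0.08, adjusted p = 0.073), a cell surface peptidase. Those 3 did not pass.

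**Figure D1:**
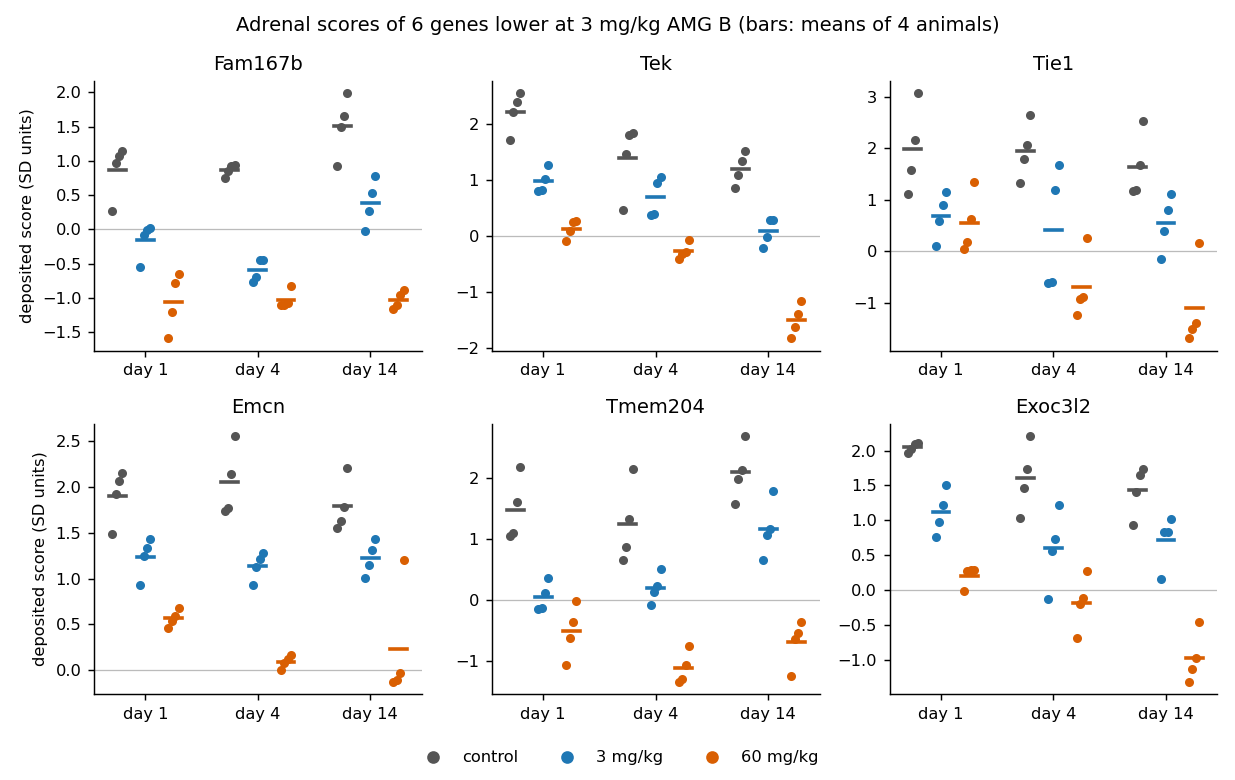
Deposited scores (y axis, in standard deviations of the probe set over all arrays) of Fam167b, Tek, Tie1, Emcn, Tmem204 and Exoc3l2 in single adrenal glands by day (x axis) and dose. Points are animals and bars are means of 4; for Fam167b and Emcn all 4 animals at 3 mg/kg lie below all 4 controls on each day, and the means at 60 mg/kg lie lower still in all 6 panels.

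The promoter windows of 3 of these genes, each with a match, are shown. The ETS family, to which Ets1 belongs, is known for binding a GGAA core in endothelial promoters. The windows span 250 bases before to 50 bases after the gene start, 5′ to 3′ on the gene's strand, from RefSeq (build GRCr8). Fam167b lies at chr5:147206574-147206873 on the minus strand, Tie1 at chr5:137304932-137305231 on the minus strand and Emcn at chr2:228564289-228564588 on the plus strand. Capitals mark AGGAAG or CGGAAG on either strand (CTTCCT or CTTCCG on the strand shown).
Fam167b: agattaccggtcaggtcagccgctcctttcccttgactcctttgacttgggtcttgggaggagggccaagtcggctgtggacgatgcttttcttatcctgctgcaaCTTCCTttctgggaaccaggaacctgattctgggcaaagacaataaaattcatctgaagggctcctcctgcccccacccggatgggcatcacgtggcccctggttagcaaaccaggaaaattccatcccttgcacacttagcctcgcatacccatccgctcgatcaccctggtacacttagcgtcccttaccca
Tie1: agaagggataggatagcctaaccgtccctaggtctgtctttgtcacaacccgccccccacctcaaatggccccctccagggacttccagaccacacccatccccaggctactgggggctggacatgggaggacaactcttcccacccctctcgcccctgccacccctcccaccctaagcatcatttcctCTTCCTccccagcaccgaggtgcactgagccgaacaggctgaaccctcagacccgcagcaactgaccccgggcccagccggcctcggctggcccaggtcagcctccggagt
Emcn: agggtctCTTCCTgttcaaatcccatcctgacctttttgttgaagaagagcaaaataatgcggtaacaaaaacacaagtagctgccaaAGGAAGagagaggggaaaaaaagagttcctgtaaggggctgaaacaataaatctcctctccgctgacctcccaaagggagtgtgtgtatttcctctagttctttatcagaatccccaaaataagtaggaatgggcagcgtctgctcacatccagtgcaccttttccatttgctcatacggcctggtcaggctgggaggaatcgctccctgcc
Emcn had 2 matches and the others 1 each. Of the 15 genes that fell, 10 had a window in the table, and 6 of these (60.0%) held at least 1 match, beside 45.5% of the 33469 windows of 300 bases. Matches that overlapped were counted separately. Gpr182, Nxpe1, Pcdh17 and Rarb held no match. With 10 windows, 60.0% lies near the 45.5% of all windows, and no test was made. A match of 6 letters is a description of the window, not a binding site. The part of Ets1 in the falls was not tested.

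Among the remaining falls, Tmem204, a transmembrane protein of endothelial junctions, ran from 0.66 to 2.68 (median 1.59) in the controls and from -0.14 to 1.78 (median 0.30) in the treated animals. It differed by -1.13 ± 0.187 in score (adjusted p = 0.0017, limma), and the groups were apart on 2 of 3 days. Exoc3l2, a relative of exocyst subunits that tether secretory vesicles, ran from 0.94 to 2.20 (median 1.74) in controls and from -0.13 to 1.5 (median 0.83) in treated animals, a difference of -0.89 ± 0.163 (adjusted p = 0.0057, limma). Pcdh17, a protocadherin, differed by -1.17 ± 0.248 (adjusted p = 0.031), and its 2 other probe sets by -1.43 and -1.07. All 12 treated animals were below their day's control mean for each of these 3 genes. The Pcdh17 call was lost in 12 of the 24 fits that left out 1 animal.

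The next 5 falls had mixed roles. Nxpe1 differed by -0.94 ± 0.180 (adjusted p = 0.011) and Ly6c, a surface protein anchored by a lipid, by -0.51 ± 0.0920 (adjusted p = 0.0054). Gpr182, an atypical chemokine receptor of sinusoidal and lymphatic endothelium, differed by -0.38 ± 0.0825 (adjusted p = 0.037), a call lost in 13 of 24 fits that left out 1 animal. Mcf2l differed by -0.56 ± 0.112 (adjusted p = 0.018). Aqp1, the water channel of many capillary endothelia, differed by -0.71 ± 0.144 (adjusted p = 0.019).

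The Aqp1 groups were apart on days 4 and 14 but not on day 1. Its day 1 groups overlapped widely (1.13 to 1.84 in controls, 0.88 to 2.18 in treated animals). On day 4 the controls had 1.43, 1.57, 1.74 and 1.87 and the treated animals -0.03, 0.06, 0.26 and 1.38, and on day 14 the values were 1.48, 1.54, 1.74 and 1.77 against 0.61, 0.63, 0.69 and 0.93. The treated animals were below all controls on these 2 days. The change in the effect from day 1 to day 4 was -1.25 ± 0.352 and did not pass (adjusted p = 0.44, limma).

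The other 3 falls, Car8, Ets1 and Rarb, were smaller in score. The rule took the 12 largest pooled falls and named Car8 by its day 1 and day 4 calls, while Ets1 and Rarb were named after their values were seen. Car8, a carbonic anhydrase relative without enzyme activity that binds the inositol trisphosphate receptor, ran from -0.92 to -0.62 in controls and from -1.02 to -0.88 in treated animals. Its difference of -0.20 ± 0.0248 was small on this scale but large against its spread (adjusted p = 1.2e-05, limma). Ets1, a transcription factor of endothelium and lymphocytes, ran from -0.33 to 0.05 in controls and from -0.43 to -0.24 in treated animals, a difference of -0.21 ± 0.0385 (adjusted p = 0.0057, limma). Rarb, a retinoic acid receptor, differed by -0.15 ± 0.0312 (adjusted p = 0.022, limma).

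The 3 rises lost their calls in some of the fits without 1 animal. Cdh20, a cadherin, ran from -3.09 to 0.48 (median -1.50) in controls and from -1.02 to 1.51 (median 0.53) in treated animals, a difference of 1.67 ± 0.365 (adjusted p = 0.045, limma) that was lost in 15 of 24 fits without 1 animal. Wdr20, a cofactor of deubiquitinating enzymes, was above its day's control mean in 12 of 12 treated animals and differed by 0.47 ± 0.105 (adjusted p = 0.049), a call lost in 18 of 24. The Tbl1x call was lost in 1 of 24. Tbl1x, a subunit of the nuclear receptor corepressor complex, differed by 0.52 ± 0.103 (adjusted p = 0.018). By day its difference was -0.099 on day 1, 0.46 on day 4 and 1.185 on day 14. Its other probe sets differed by 0.37 and -0.45, so its direction rests on the probe set chosen.

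The VEGF receptors were read with every probe set, because the probe sets of a gene disagreed. For Kdr, the main VEGF receptor of endothelium, the representative probe set differed by 0.00 ± 0.0468 (adjusted p = 1, limma). The other Kdr probe set (name ending in a_at) had 1.42, 1.44, 1.56 and 1.69 in the day 1 controls and 0.10, 0.49, 0.74 and 0.97 at 3 mg/kg. On day 4 it had 0.88, 1.05, 1.93 and 2.47 against -0.90, -0.48, -0.13 and 0.26, and on day 14 it had 0.69, 1.05, 1.27 and 1.29 against 0.03, 0.35, 0.44 and 0.68. Treated animals were below all controls on each of the 3 days by this probe set. Its difference was -1.18 ± 0.152 (adjusted p = 2.4e-05 over 31042 probe sets, limma). At 60 mg/kg the a_at probe set differed from control by -2.29 ± 0.152 and from 3 mg/kg by -1.11 ± 0.152 (adjusted p = 2.8e-05, limma).

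The 3 probe sets of Flt1, the second VEGF receptor, differed by -0.23 ± 0.154, -0.75 ± 0.205 and -1.0 ± 0.261, and none passed over all probe sets (adjusted p = 0.91, 0.26 and 0.22, limma). Over 11 other settings the gene's difference ran from -0.659 to -0.207, and it passed in 1 of them. At 60 mg/kg all 3 probe sets were below control (-0.528, -0.952 and -1.12, adjusted p = 0.041, 0.0041 and 0.0088, limma). None passed as lower at 60 than at 3 mg/kg (adjusted p = 0.4, 0.73 and 0.9, limma). Flt4, the receptor of lymphatic endothelium, differed by 0.23 ± 0.238 and the ligand Vegfa by 0.05 ± 0.194, neither passing. Of the 10 measured VEGF ligands and receptors read by their representative probe sets, 0 passed. Nrp1, a coreceptor for VEGF, differed by -1.04 ± 0.307 (adjusted p = 0.34) and Vegfb by -0.24 ± 0.0803 (adjusted p = 0.47). In the unplanned fit without animal 35, Nrp1 passed (adjusted p = 0.0042, limma) with the same difference.

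**Figure D2:**
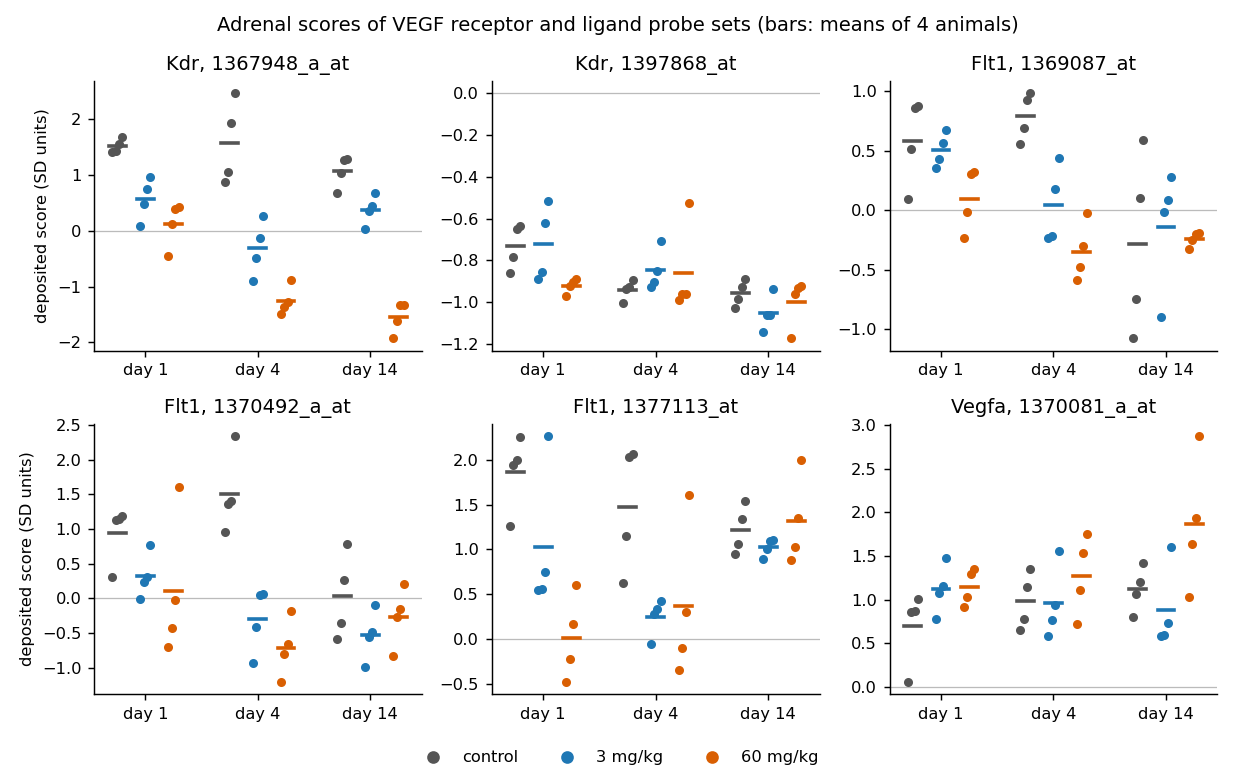
Deposited scores (y axis) of both Kdr probe sets, the 3 Flt1 probe sets and 1 Vegfa probe set in single adrenal glands by day (x axis) and dose, with bars at the means of 4 animals. Of the 6, only the Kdr probe set with a name ending in a_at separates 3 mg/kg from control on all 3 days; the y axes differ between panels, and the other Kdr probe set spans a narrow range below 0.

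Most endothelial genes were below control at this dose. Of the 29 measured genes of the list, 4 passed downward and 0 upward (background 0.106% and 0.0211%), 24 had a difference below 0 (49.3% of all genes), and 15 had an unadjusted p under 0.05 downward (3.56% of all genes). The list's median difference was -0.27 against 0.00 over all genes. This list, which holds Fam167b, was chosen like the others with earlier results of these data known. Its shares therefore describe these genes and are not independent evidence. In the unplanned fit without animal 35, 9 of 29 passed downward (0.309% of all genes in that fit). The additions were Eng (-0.49), Pecam1 (-0.57), Esam (-0.46), Ramp2 (-0.57) and Sox17 (-0.89). Mmrn2 (-0.67), Erg (-0.71) and Lyve1 (-0.41) did not pass with all arrays. Cd93 (-0.0001), S1pr1 (-0.02) and Egfl7 (-0.03) were near 0, and Icam2 (0.28) and Rasip1 (0.18) were above it.

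The mean score of the 29 endothelial genes per gland was 0.505 to 0.787 in the day 1 controls and 0.215 to 0.276 at 3 mg/kg. On day 4 it was 0.415 to 0.773 against 0.0668 to 0.25, and on day 14 it was 0.625 to 0.852 against 0.317 to 0.638. The ranges were apart on days 1 and 4 and overlapped narrowly on day 14. In whole glands, fewer endothelial cells and less RNA per endothelial cell cannot be told apart.

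Of 21 measured genes that mark sprouting endothelium (tip cells) or respond to VEGF, 0 passed, and 3 were lower at an unadjusted p under 0.05 (3.56% of all genes). Esm1 (-0.02), Dll4 (-0.04) and Apln (0.26) did not pass. Basement membrane genes had 0 of 13 past the test and 10 below 0 (49.3% of all genes), with a median of -0.22. Nid2 was the lowest (-0.52, adjusted p = 0.44, limma). Of 15 pericyte and smooth muscle genes 0 passed, and Rgs5 differed by -0.42 (adjusted p = 0.79). In the unplanned fit without animal 35, Nid2 passed.

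Of 19 macrophage and complement genes, 0 passed, while 18 had a difference below 0 (49.3% of all genes) and 6 an unadjusted p under 0.05 downward (3.56% of all genes). Cd74, the invariant chain of antigen presentation, differed by -0.38 ± 0.0904 (adjusted p = 0.081), C1qc by -0.36 ± 0.0895 and C1qa by -0.23 ± 0.0605. In the unplanned fit without animal 35, 4 of 19 passed, beside 0.309% of all genes lower in that fit: C1qa, C1qc, Mrc1 and Cd74. The mean of the 19 genes was -0.204 to 0.118 in the day 14 controls and -0.565 to -0.271 in the treated animals, with no overlap. The 2 groups overlapped on day 1 (-0.631 to -0.238 and -0.693 to -0.583) and on day 4 (-0.67 to -0.366 and -0.78 to -0.496). The part of these cells in the endothelial result was not tested.

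Fat cell markers, which stand for the fat around the gland, had lower means beside the endothelial genes on days 1 and 4 and a nearly equal mean on day 14 (-0.237 in controls, -0.262 in treated animals). All 13 were below 0 in the pooled comparison (49.3% of all genes), with a median of -0.32, and 0 passed. The lowest was Ucp1, the uncoupling protein of brown fat (-1.39 ± 0.520, adjusted p = 0.60, limma). The mean of the 13 genes ran from 0.28 to 0.931 in the day 1 controls and from -0.327 to -0.0098 in the treated animals, from -0.456 to 1.46 against -0.388 to 0.493 on day 4, and from -0.417 to 0.22 against -0.444 to -0.0664 on day 14. With this mean as a covariate, chosen after the data were seen, limma called 12 genes, all lower, 11 of them among the 18. Fam167b (-1.23), Tek (-0.96), Emcn (-0.69) and Tmem204 (-1.15) passed there. Of the 18, 7 did not pass: Tie1 (-1.17), Pcdh17 (-1.19), Mcf2l (-0.51), Rarb (-0.15), Cdh20 (1.61), Tbl1x (0.49) and Wdr20 (0.45). The endothelial median was -0.27 with and without the covariate. Of 29 endothelial genes, 24 were below 0 without it and 21 with it, and the calls went from 4 to 3. The covariate itself differed between the groups on day 1, so this fit cannot separate fat from treatment. The part of fat in the endothelial result was not tested.

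Of 10 blood genes 0 passed with all arrays: Hbb, the beta globin gene, differed by -0.64 ± 0.162 (adjusted p = 0.12) and Alas2, the erythroid heme synthesis enzyme, by -0.38 ± 0.0894 (adjusted p = 0.073), with 8 of 10 members below 0 (49.3% of all genes). In the unplanned fit without animal 35, Alas2 passed (adjusted p = 0.043, limma), 1 of 10 beside 0.309% of all genes lower. The mean of the 10 genes ran from -0.476 to -0.238 in controls and from -0.703 to -0.572 in treated animals on day 1, with no overlap, and overlapped on days 4 and 14. The part of blood content in the endothelial result was not tested. Of 12 kidney markers, for tissue beside the gland, 0 passed, 8 were below 0 (49.3% of all genes) and 4 above, with a median of -0.04. Those of smallest p were Cubn (-0.49, adjusted p = 0.68, limma) and Kap (-0.48, adjusted p = 0.78, limma). On day 1, 9 of the 12 were above 0.

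The steroid-producing side of the gland gave no calls. Of 10 steroid synthesis enzymes 0 passed, with pooled differences from -0.06 to 0.11; Star, which carries cholesterol into mitochondria, differed by 0.09 ± 0.0510 (adjusted p = 0.88). Cholesterol synthesis genes had 17 of 19 above 0 (median 0.15) and 0 past the test, with Dhcr7 at 0.25 ± 0.125 (adjusted p = 0.85). Cell cycle genes had 29 of 33 above 0 (median 0.17) and medullary genes 21 of 26, again with 0 past the test. Over all genes 49.3% were below 0, beside 2 of 19 cholesterol synthesis, 4 of 33 cell cycle and 5 of 26 medullary genes. Stmn2, a neuronal tubulin regulator, was at 0.54 ± 0.232 (adjusted p = 0.75).

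**Figure D3:**
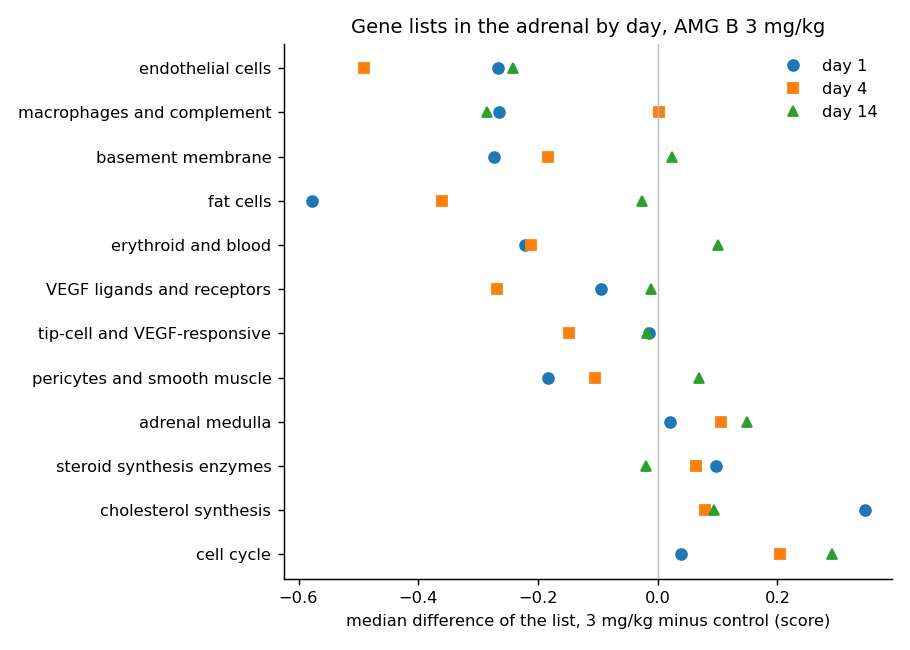
Median difference in score between 3 mg/kg and control (x axis) of 12 gene lists (y axis) in the adrenal on days 1, 4 and 14. The endothelial list lies below 0 on each day (-0.266, -0.491 and -0.241), while the fat cell list goes from -0.578 on day 1 to -0.0256 on day 14.

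Day by day, with 4 animals against 4, few genes passed. The 15 falling genes had median differences of -0.674, -0.92 and -0.681 on days 1, 4 and 14. These genes were chosen by the mean of the same within-day differences. Negative medians therefore follow largely from that choice and are not separate evidence for each day. The day 1 comparison gave 1 call (0.00703% of 14217), and 640 genes had an unadjusted p under 0.05. This was Car8, at -0.81, -0.71, -0.68 and -0.66 in controls and -1.02, -1.01, -0.98 and -0.93 in treated animals (difference -0.27 ± 0.0429, adjusted p = 0.0036). With only the compared groups Car8 did not pass (adjusted p = 0.49). Tek (-1.24, adjusted p = 0.058) and Fam167b (-1.02, adjusted p = 0.096) did not pass on this day.

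On day 4 limma called 6 genes (0.0422%), 2 higher and 4 lower, with 848 at an unadjusted p under 0.05. Fam167b (-1.46 ± 0.209, adjusted p = 0.00040), Aqp1 (-1.23 ± 0.249, adjusted p = 0.043), Mcf2l (-0.96, adjusted p = 0.043) and Car8 (-0.21, adjusted p = 0.043) fell. Marf1, a regulator of messenger RNA stability, had -0.56, -0.32, -0.14 and -0.11 in controls and 0.78, 0.80, 0.87 and 1.26 at 3 mg/kg (adjusted p = 0.0016), with no overlap. Atp2b3, a plasma membrane calcium pump, had 0.60, 0.94, 1.14 and 1.33 in controls and 1.59, 2.46, 2.69 and 3.17 at 3 mg/kg (adjusted p = 0.0066). Its other probe sets differed by 0.95 (adjusted p = 0.72 over all probe sets) and -0.32, and the mean of its probe sets (0.70) did not pass (adjusted p = 0.56). Leaving out 1 animal at a time lost the Car8 call in 7 of 8 fits, Aqp1 in 6, Mcf2l in 5 and Atp2b3 in 2. The count was 15 (4 higher, 11 lower) without animal 35 and 1 with only the compared groups.

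On day 14 limma called 4 genes (0.0281%), 1 higher and 3 lower, with 832 at an unadjusted p under 0.05. Fam167b fell (-1.12 ± 0.209, adjusted p = 0.020), as did Creg2, a secreted glycoprotein (-1.39 ± 0.270, adjusted p = 0.030), and Scgb3a1, a secretoglobin (-1.03 ± 0.190, adjusted p = 0.020). Tbl1x was above its controls (1.19 ± 0.179, adjusted p = 0.0012), and the mean of its probe sets turned the sign (-0.06). Its day 14 controls had -0.07, -0.04, 0.03 and 0.24 and the treated animals 0.74, 0.89, 1.62 and 1.65. Controls of the same study ran from 1.42 to 1.59 on day 1 and from 0.66 to 1.17 on day 4. The day 14 controls of the AMG A study ran from 1.135 to 1.703. The treated scores lay within the range of these other controls. Leaving out 1 animal at a time lost the Creg2 call in 6 of 8 fits and the Fam167b and Scgb3a1 calls in 3 each. The count was 7 (1 higher, 6 lower) without animal 35 and 0 with only the compared groups.

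The effects of the 3 days differed for few genes. The effect on day 4 minus day 1 passed for 2 genes (0.0141%), Scnn1b (2.57 ± 0.493, adjusted p = 0.049), a subunit of the epithelial sodium channel, and Rnf223 (-1.66 ± 0.302, adjusted p = 0.038), a ring finger protein. Scnn1b ran from 0.60 to 1.63 in day 1 controls and from -0.64 to 0.70 in treated animals, and from -0.71 to -0.23 against -0.54 to 1.94 on day 4. Leaving out 1 animal lost the Scnn1b call in 12 of 16 fits and the Rnf223 call in 8. Without animal 35, 0 genes passed this test. Day 14 minus day 1 and day 14 minus day 4 gave 0 genes with limma, with 653 and 538 at an unadjusted p under 0.05; of the 15 falls, none differed between days past the threshold, which does not show that their effects were equal.

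Of the 15 falling genes, 11 passed as lower at 60 mg/kg than at 3 mg/kg. The 3 and 60 mg/kg comparisons share the 12 control glands, so the values are set side by side: the median difference of the 15 genes was -0.72 at 3 mg/kg and -1.62 at 60 mg/kg. Tek was at -1.02 and -2.15, Tmem204 at -1.13 and -2.38, Exoc3l2 at -0.89 and -2.01, Emcn at -0.72 and -1.63 and Fam167b at -1.20 and -2.12. The difference between the 2 doses, which shares the treated glands that chose the genes, passed downward for 11 of 15 (background 1.12% of 14217 genes), for example Tek (-1.13 ± 0.139, adjusted p = 2.6e-06) and Tie1 (-0.97 ± 0.268, adjusted p = 0.046). Aqp1 (0.26 ± 0.144, adjusted p = 0.40), Mcf2l (0.19 ± 0.112, adjusted p = 0.44), Gpr182 (-0.10 ± 0.0825, adjusted p = 0.60) and Pcdh17 (-0.65 ± 0.248, adjusted p = 0.18) did not pass. Over all genes, 60 against 3 mg/kg passed for 333 genes pooled (2.34%) and for 1006 on day 14 (7.08%). With only the compared groups these counts were 91 and 4, and without animal 35, which is in this comparison, 457 and 831. Leaving out 1 animal at a time gave 190 to 457 pooled, and the count fell by over 1.5 times without animal 10 (190), 23 (208) or 17 (220).

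In the adrenal, AMG A was matched to AMG B in dose and time at 3 mg/kg on day 14. The AMG A pancreas arrays entered the fit of the 24 pancreas arrays, but no AMG A pancreas comparison was made here. For AMG A in the adrenal, against its own study's controls, limma called 2 genes (0.0141%), both lower, with 455 at an unadjusted p under 0.05. Of the 15 genes, 0 passed there, 9 were below 0 (53.1% of all genes), and the median difference was -0.03. Fam167b differed by 0.15 ± 0.209 and Tek by -0.22 ± 0.240 with AMG A. The difference between compounds on day 14, AMG B minus AMG A, was -1.27 for Fam167b (95% interval -1.87 to -0.67, adjusted p = 0.20), -0.90 for Tek (-1.59 to -0.21, adjusted p = 1) and -0.55 for Emcn (-1.15 to 0.06, adjusted p = 1). All 15 were below 0 (48.4% of all genes) and 0 passed after adjustment, so a difference between compounds was not shown for any of them, nor was likeness. The 2 effects came from separate studies with separate controls, and the test of AMG B uses day 14 glands that also entered the choice of the genes. Over all genes, Sgf29, Tbl1x and Msl1 (0.0211%) passed, each with a higher effect of AMG B, and the mean of the Tbl1x probe sets turned that sign (-0.09). The low Tbl1x scores of the day 14 AMG B study controls enter this test too. With the mean of probe sets Sgf29 (0.75, adjusted p = 0.44) and Msl1 (0.53, adjusted p = 1) did not pass. The call was lost in 10 of 16 fits without 1 animal for Tbl1x and in 11 of 16 for Msl1, and with only the compared groups 0 genes passed.

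**Figure D4:**
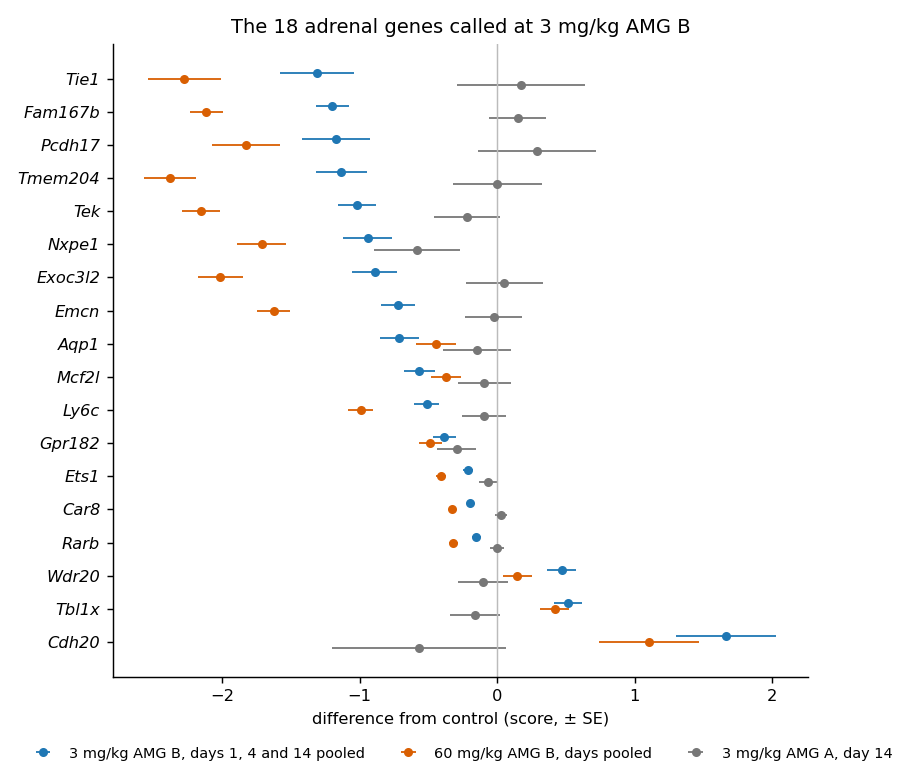
Differences from control in score ± SE (x axis) of the 18 genes called at 3 mg/kg of AMG B (y axis), for 3 and 60 mg/kg of AMG B pooled over days and for 3 mg/kg of AMG A on day 14. Tek is at -1.02, -2.15 and -0.22 in the 3 comparisons, and Aqp1 and Mcf2l are the 2 lower genes with a smaller difference at 60 than at 3 mg/kg.

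By their numbers, the livers came from the same treated and control animals on the same days, as did the day 14 pancreases. They show the genes in another tissue of the animals that chose them, not in separate animals. With 3 mg/kg, limma called 12 genes in liver (0.0844%), 2 higher and 10 lower. Of the 15 adrenal genes, 0 passed there, 13 were below 0 (50.7% of all genes), and 4 had an unadjusted p under 0.05 downward (3.26% of all genes): Fam167b (-0.52 ± 0.170, adjusted p = 0.49), Gpr182 (-0.46), Exoc3l2 (-0.39) and Pcdh17 (-0.34). In day 14 pancreas the limma fit made 0 calls at this dose, although 1263 genes had an unadjusted p under 0.05. Of the 15 genes, 9 were below 0 there (49.8% of all genes). Scores in these tissues scale to each probe set's spread over all tissues, and no test of adrenal against liver or pancreas was made.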

How the data were processed

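Arrays of rat adrenal, liver and pancreas were used. Per the labels, RNA was extracted with RNeasy midi columns and one-cycle biotin labelling took 5 ug of it. The deposited values are a score: over all arrays, a probe set's mean was close to 0 and its SD close to 1. How the authors summarised and scaled signal is not given in the sources used here. Of 31042 probe sets on 108 arrays, 20826 had 1 gene symbol, updated by Entrez number to RefSeq GRCr8, giving 14217 genes. Where a gene had several, the probe set whose variance lay most between tissues stood for it.

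Group means of the 48 adrenal arrays (12 groups of 4) were fitted with limma 3.58.1 (eBayes with trend) in R 4.3.3, with two-sided tests. P-values were adjusted (Benjamini-Hochberg) over all genes of each contrast, and those under 0.05 passed. The pooled contrast is the mean of the 3 within-day differences. Liver (36 arrays) and pancreas (24 arrays) were fitted alike. The number of arrays limits the precision. No filter on signal was possible on scores.

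The genes named were the largest 12 rises and falls pooled and 6 per day past the threshold, filled by smallest p where fewer passed, up to 4 per difference contrast, list members, and Vegfa, Kdr, Flt1 and Flt4; not all are printed. Comparison, 32 gene lists and rules were chosen with earlier results of these data known. The fits were tested on simulated data. Python 3.11.15, pandas 2.3.3, numpy 2.4.6 and matplotlib 3.10.9 were also used.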

Additional observations from a re-analysis of the deposited data

Results flagged for a closer look

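Of 132 groups of 4 animals (22 genes, doses 0 and 3 mg/kg), 3 held an animal far from the others, fewer than the 6.6 that chance gives at 1 in 20. Nxpe1 was 0.596 in animal 20 (3 mg/kg, day 4), with the others from -0.142 to -0.029. Vegfa was 0.063 in animal 3 (control, day 1), with the others from 0.857 to 1.014, and 1.606 in animal 30 (3 mg/kg, day 14), with the others from 0.589 to 0.73. The effect of 3 mg/kg passed as different between day 4 and day 1 for Scnn1b (2.57) and Rnf223 (-1.66). Leaving out 1 animal lost these calls in 12 and 8 of 16 fits.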

How the results depend on the processing

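No paired analysis was possible because each animal gave 1 adrenal array in 1 dose and day. The pooled count of 18 was 56 (7 higher, 49 lower) with array weights, which gave animal 35 a weight of 0.165, and 50 without animal 35; with only the compared groups it was 24 (10 shared with the 18), with the additive day block on 24 arrays 16 (8 shared), and leaving out 1 of the 24 compared animals gave 13 to 22. The day 1 count of 1 was 3 with quantile normalization, the mean of probe sets or without animal 35, 7 with array weights, 0 with the filter on low variation and 0 to 2 leaving out 1 animal; with only the compared groups it was 1, another gene than Car8. The day 4 count of 6 was 1 with only the compared groups, 3 with only the AMG B study, 21 with array weights, 15 without animal 35 and 2 to 18 leaving out 1 animal. The day 14 count of 4 was 0, 7 with only the AMG B study, 7 without animal 35 and 2 to 11 leaving out 1 animal. The 0 for day 14 came from only the compared groups. Day 4 minus day 1 (2) was 0 with only the compared groups, only the AMG B study or without animal 35, 6 with array weights and 0 to 7 leaving out 1 animal. Day 14 minus day 1 (0) was 1 with only the compared groups or array weights and 0 to 2 leaving out 1 animal; day 14 minus day 4 (0) was 1 with only the AMG B study and 0 to 1. The 60 against 3 mg/kg count of 333 was 91 with only the compared groups, 208 with quantile normalization and 190 to 457 leaving out 1 animal; on day 14 the count of 1006 was 4, 603, 622 with array weights and 744 to 1260. AMG B minus AMG A (3) was 0 with only the compared groups, 1 with quantile normalization, 1 (lower) with the mean of probe sets and 1 to 4 leaving out 1 animal; it could not be computed with only the AMG B study. The liver count of 12 was 5 with only the compared groups and 3 to 15 leaving out 1 animal. The cause of these shifts was not tested.

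Fam167b, Tmem204, Tek, Nxpe1, Exoc3l2, Emcn and Ly6c passed in all 11 other settings and in all 24 fits without 1 animal. Tie1, Pcdh17, Gpr182, Cdh20, Tbl1x and Rarb each lost their pooled call in 4 settings and Wdr20 in 7. Signs turned for Kdr's representative probe set (-0.0069 with median centring, -0.0089 with the fat covariate, -0.018 to 0.024 leaving out 1 animal), Vegfa (-0.034 with the fat covariate, -0.028 to 0.095 leaving out 1 animal) and Tbl1x with the mean of probe sets (-0.057 on day 14, -0.085 for AMG B minus AMG A). The mean of both Kdr probe sets differed by -0.59 and passed as lower (adjusted p = 9.9e-05, limma). Signal over background is unknown on this scale, so dim probe sets cannot be told apart.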

Other observations

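Without the array of animal 35 the genes that joined the pooled calls included Lrg1 (-0.67, adjusted p = 0.0013), a secreted glycoprotein of vessels, and Dysf (-0.91, adjusted p = 0.0073), a membrane repair protein, both lower. Lpar4, a lysophosphatidic acid receptor (-0.85, adjusted p = 0.043), and Tspan12, a tetraspanin of endothelial Norrin signalling (-0.32, adjusted p = 0.037), were lower as well. Smarca2, a chromatin remodelling ATPase, was higher (0.56, adjusted p = 0.032). These limma values were chosen after the data were seen. Over all 31042 probe sets, 27 passed in the pooled comparison, 25 of them lower, and 7 of the 27 had no symbol or several.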
